A study of Zea mays with 30 samples.

Results

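The genes described here carry the names of photosynthetic proteins or of their families, and were measured in laser-microdissected shoot apical meristems (SAMs) of maize. They were chosen by name: a gene was a member if its symbol or a synonym starts with cab, lhcb, lhca, rbcs, ssu, psa, psb, pet or fdx, or names an enzyme of the C4 cycle through pep1, ppc, pdk1, ppdk, me3 or ca1. Of 866 genes with a named probe on the 3 cDNA chips, 19 matched. Of these, 3 were left out because they encode kinases (a pyruvate dehydrogenase kinase and the PEP carboxylase kinases *PPCK1* and *PPCK2*) rather than photosynthetic proteins. The other 16 genes have 81 probes of 49280 in all. There are 26 probes of 13 members on SAM 1.1, 39 probes of 14 members on SAM 2.0 and 16 probes of 9 members on SAM 3.0, and 8 members are on all 3 chips. They fall into 4 C4 cycle genes (*pep1*, *pdk1*, *me3*, *pep7*), 4 light-harvesting genes (*Cab-m7*, *lhcb5*, *Lhcb5-2*, *lhcb6*), 5 photosystem genes (*psad1*, *psah1*, *psan1*, *psbq1*, *psbs1*), 2 ferredoxin genes (*fdx2*, *fdx3*) and the Rubisco small subunit gene *rbcs1*. *pep7* matched through a *ppc* synonym and was grouped with the C4 cycle by its enzyme, although it is distinct from the leaf form *pep1*. *fdx3* matched by its symbol, although it is a ferredoxin of the nonphotosynthetic type.

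Maize leaves fix carbon by the C4 pathway, which is shared between 2 cell types of the mature blade. In mesophyll cells phospho*enol*pyruvate (PEP) carboxylase makes a C4 acid, and in bundle sheath cells NADP-malic enzyme releases the carbon dioxide again for Rubisco. Light is collected by chlorophyll a/b-binding proteins, passed to the photosystem cores, and the electrons leave photosystem I through ferredoxin. The SAM makes leaves but holds no mature green cells. Its plastids are proplastids, and photosynthesis genes are known mainly from the leaf. Some families also have members that serve nongreen tissue, among them a ferredoxin and PEP carboxylases outside the C4 cycle.

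On each array ns mutant RNA (*ns1-R*; *ns2-R*) was hybridized together with nonmutant RNA (*Ns1*/*ns1-R*; *ns2-R*), so both carried the *ns2-R* mutation in the homozygous state and the comparison bears on *ns1* alone. Seedlings were 2 weeks old and came from 1 highly introgressed line. Each sample pooled SAMs that included the founder cells of the incipient leaf, and its RNA was amplified before labeling. There were 6 replicates per chip, with the dyes swapped between replicates. Each SAM 3.0 array was read in 3 scans, which were averaged and counted as 1 array. The sources used here do not say whether replicates with the same number on different chips are the same RNA, so the chips are described side by side and not pooled. In such bulk samples fewer cells of a type and less RNA per cell cannot be told apart.

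The median spot signal over local background ranged from 2.60 to 10.7 between channels of the 18 arrays. The 6 ns channels and 6 nonmutant channels of a chip overlapped in this measure on each chip. The dimmest channel on SAM 1.1 was the nonmutant channel of replicate 3, with a median of 2.94. The meristem label was checked against marker genes. Of 9 measured meristem genes, 6 gave signal above background on at least 1 chip, beside 77% of the 866 named genes, so this count does not set the list apart. Neither probe of *ns1*, on SAM 3.0, was above background in all arrays. The SAM marker *kn1* was above it on each chip, with median nonmutant signals of 12.7 times background on SAM 1.1, 6.90 on SAM 2.0 and 12.5 on SAM 3.0. Of 10 measured leaf primordium genes 8 were above background on at least 1 chip, as were 5 of 7 vascular and 2 of 6 epidermis genes. Whether the signal of a photosynthesis gene came from the meristem proper, from the founder cells or from primordium tissue carried along was not tested.

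Signal above background was asked first. A probe was counted as above background where the spot signal was at least 2 times its local background in both channels of all 6 arrays, and a gene where at least 1 of its probes was. By this rule 10 of the 16 members were above background on at least 1 chip, beside 77% of the 866 named genes, and 6 (*pep1*, *Lhcb5-2*, *psad1*, *psah1*, *psan1*, *fdx2*) on none. On SAM 1.1 11 of 26 member probes passed, which is 42.3%, and 61.2% of all probes of that chip did. On SAM 2.0 6 of 39 member probes passed, which is 15.4%, beside 53.7% of all probes. On SAM 3.0 6 of 16 member probes passed, which is 37.5%, beside 60.3% of all probes. On each chip the share of member probes above background was thus below that of all probes. The member counts include *fdx3*, a ferredoxin of the nonphotosynthetic type, and *pep7*, which is distinct from the leaf form. Of the 23 member probes that passed over the chips, 5 were of *fdx3* and 4 of *pep7*. On SAM 1.1 each of these genes gave 3 of the 11. All probes here are the 19200, 14080 and 16000 spots of the chips, more than the paper counts as informative. The share among informative spots alone was not tested. At the level of genes, 6 of 13, 5 of 14 and 5 of 9 members passed on the 3 chips.

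The classes are spread unevenly over the chips, so their counts are given by chip, with no test between classes. Of the C4 cycle probes 5 of 9 were above background on SAM 1.1, 1 of 8 on SAM 2.0 and 3 of 4 on SAM 3.0. Over the chips these were 9 of 21, and 5 of 11 without *pep7*. Of the light-harvesting probes 1 of 4 passed on SAM 1.1 and 4 of 16 on SAM 2.0, so the order of these classes on SAM 1.1 was the opposite of that on SAM 2.0. Of the photosystem probes 1 of 6, 0 of 10 and 1 of 7 passed on the 3 chips. Ferredoxin had 5 of 12 over the chips, all of them from *fdx3*, and *rbcs1* had 2 of 5. Several probes lay close to the threshold. The *Cab-m7* probe on SAM 1.1 had a lowest nonmutant signal of 1.998 times background and a *pep7* probe on SAM 1.1 (10098) one of 1.98, both just outside. The lowest signals just inside were 2.16 times background at *pep7* probe 7278 on SAM 3.0 and 2.18 at *rbcs1* probe 16448 on SAM 1.1. The count on SAM 1.1 was 8 genes without replicate 3. When every probe of a gene had to pass, the counts were 3 genes on SAM 1.1, 0 on SAM 2.0 and 2 on SAM 3.0.

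**Figure D1:**
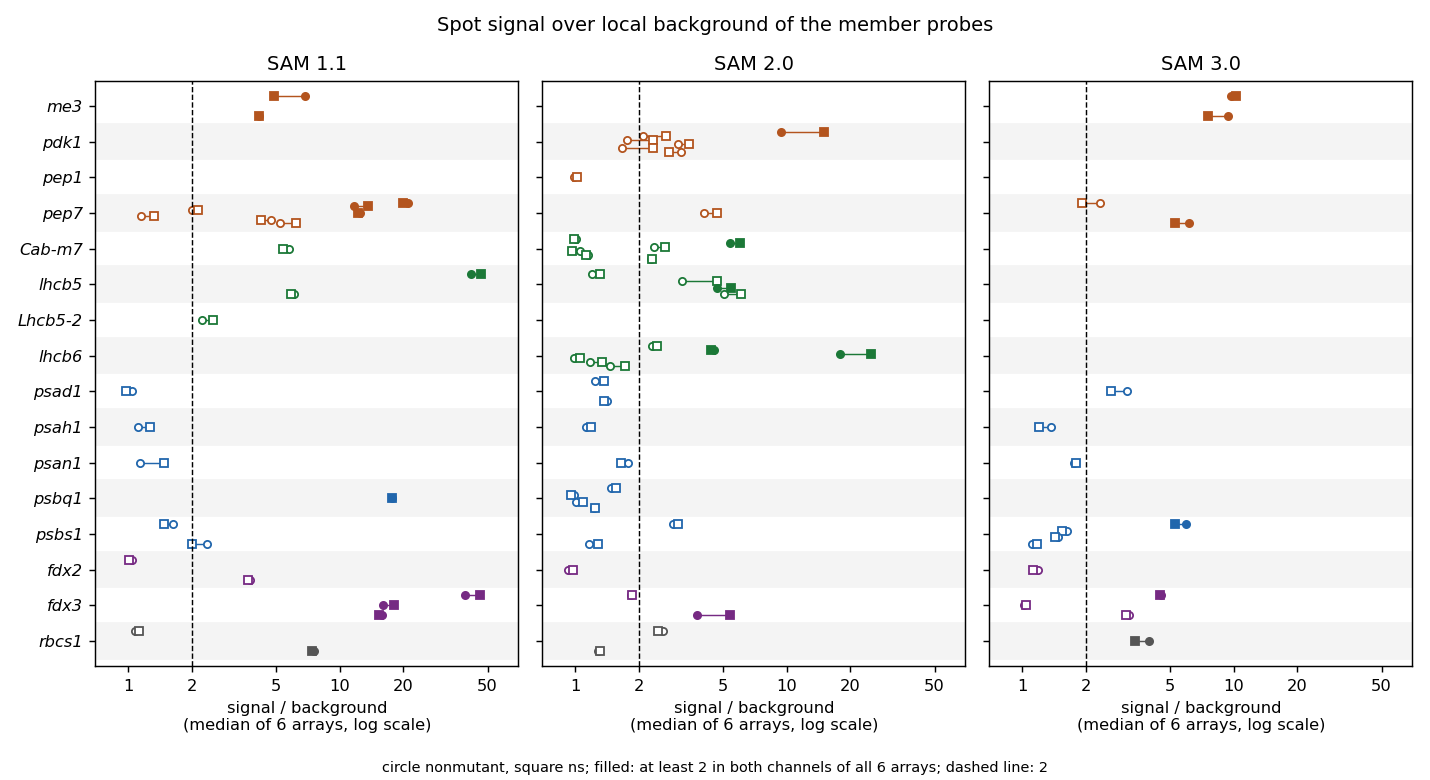
Spot signal over local background of the 81 member probes (x axis, log scale, median of 6 arrays) by gene (y axis) on the 3 chips, with a circle for the nonmutant and a square for the ns channel. Filled symbols mark probes at 2 or more in both channels of all 6 arrays. The 3 *fdx3* probes of SAM 1.1 and both *me3* probes of SAM 1.1 and SAM 3.0 are filled, and all *psad1*, *psah1*, *psan1* and *fdx2* symbols are open.

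The same cDNA clone did not always give the same answer. Among the member probes 11 clones were spotted more than once, at 24 spots in all. Of these clones 2 passed at every spot and 6 at none, and 3 lay on both sides. The *rbcs1* clone on both sides had a median nonmutant signal of 1.07 times background on SAM 1.1 (probe 9535) and 4.00 on SAM 3.0 (probe 9219). The *pep7* clone had 1.15 on SAM 1.1 (7594), 4.07 on SAM 2.0 (7474) and 6.15 on SAM 3.0 (7278). The *psbs1* clone had 1.63 on SAM 1.1 (6734), and on SAM 3.0 it had 5.95 at probe 6418 and 1.11 at probe 12509. These last values were read at 2 spots of 1 chip hybridized with the same RNA. For these 3 genes spots of the same clone thus fell on both sides of the threshold, within a chip or between chips.

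The ns mutant SAM was then compared with the nonmutant SAM. No member passed the test on any chip (limma, Benjamini-Hochberg adjusted *p*-value under 0.05 over all features of the chip, where a feature is a named gene or an unnamed probe). The share of all features that passed was 0.00556% of 17983 on SAM 1.1, 0.0365% of 13704 on SAM 2.0 and 0.013% of 15439 on SAM 3.0, so a count of 0 among so few members is near this background. The lowest adjusted *p*-values of members were 0.830, 0.780 and 0.889. At an unadjusted *p*-value under 0.05 there was 1 of 13 members on SAM 1.1 (*Lhcb5-2*), 0 of 14 on SAM 2.0 and 0 of 9 on SAM 3.0, beside 5.14%, 6.44% and 5.13% of all features. For single probes the counts were 1 of 26, 3 of 39 (all of *pdk1*) and 0 of 16, beside 5.18%, 6.48% and 5.19% of all probes. By the ordinary regression of the methods, adjusted in the same way, no member passed on any chip either.

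The ratios were small with the main processing. By it not 1 of the 36 gene ratios was past 1.5-fold in either direction. Of all features 0.245% (SAM 1.1), 0.409% (SAM 2.0) and 0.0389% (SAM 3.0) were past 1.5-fold. The 95% intervals of the 36 ratios lay between 0.717 and 1.51. Ratios above 1 (ns higher) were measured for 10 of 13 members on SAM 1.1, 9 of 14 on SAM 2.0 and 7 of 9 on SAM 3.0, beside 46.5%, 51.0% and 49.9% of all features. The median log2 ratio of the members was 0.05, 0.05 and 0.06, beside -0.01, 0.004 and -0.0002 over all features. Taken array by array, the median of the members lay between -0.07 and 0.15 on SAM 1.1, between -0.03 and 0.24 on SAM 2.0 and between -0.12 and 0.29 on SAM 3.0, so on each chip it crossed 0. Of 12 members on more than 1 chip, 5 had ratios above 1 on every chip that holds them, 1 (*me3*) below 1 on every chip, and 6 had both signs. The offset of 50, added to both channels after background correction, draws ratios toward 1, most at probes with signal near background. Plain subtraction, which uses no offset, moved *fdx2* on SAM 2.0 from a log2 ratio of 0.25 to 0.77, past 1.5-fold. On SAM 1.1 it moved *psan1* from 0.11 to 0.33, *psad1* from -0.06 to -0.26 and *Lhcb5-2* from 0.24 to 0.37. Not all ratios moved away from 0, and *lhcb5* on SAM 2.0 went from 0.065 to 0.061. This setting also differs from the main correction in its method, so the share of the offset alone was not tested.

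**Figure D2:**
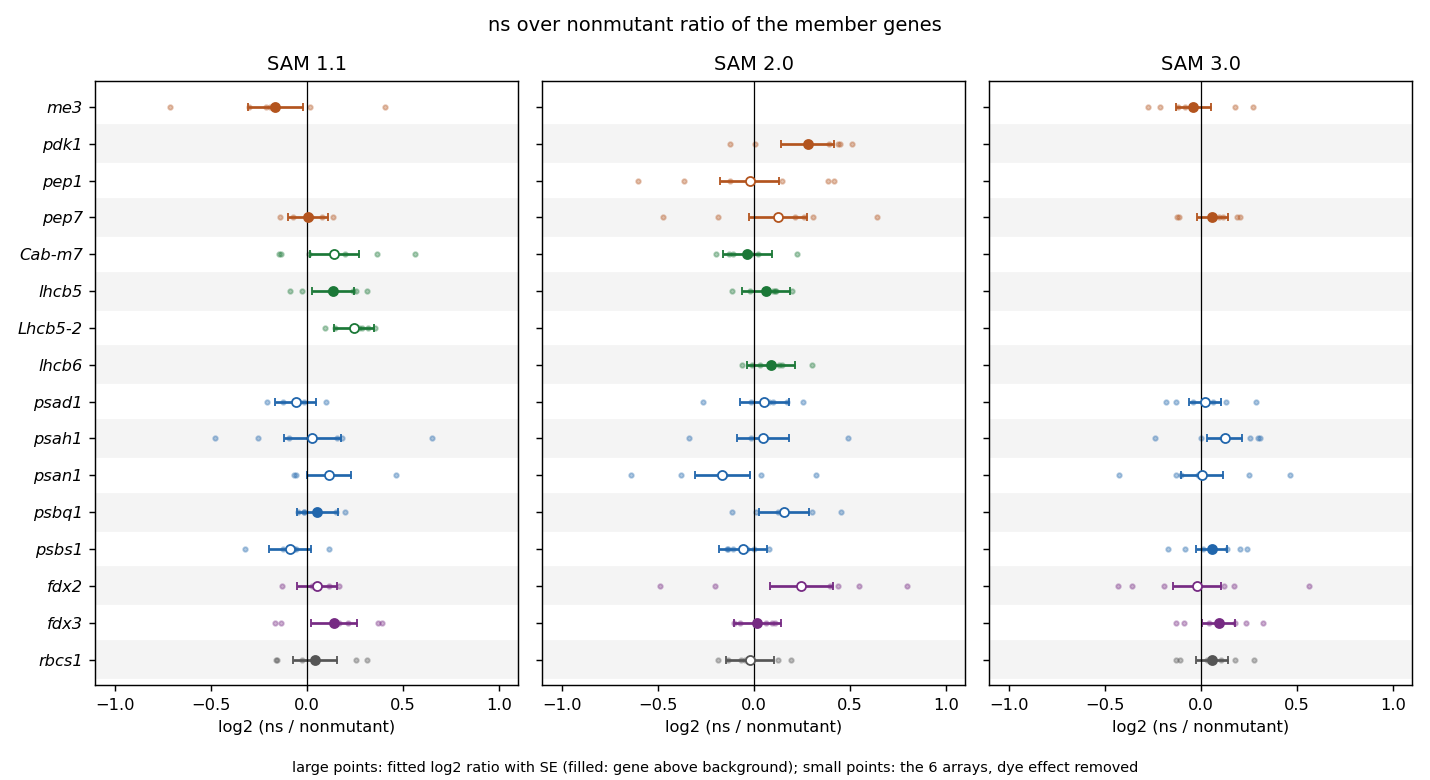
Log2 ratio of ns to nonmutant signal (x axis) of each member gene (y axis) on the 3 chips. Large points are fitted ratios with their SE (n = 6 arrays), filled where the gene was above background, and small points are the 6 arrays with the dye effect removed. Of the 36 sets of arrays 35 have values on both sides of 0, the exception being *Lhcb5-2* on SAM 1.1.

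Among the C4 cycle genes, *pep1* encodes the PEP carboxylase of mesophyll cells, the enzyme of the initial carbon fixation. Its only probe, on SAM 2.0, had median signals of 0.993 (nonmutant) and 1.02 (ns) times background. The log2 ratios in replicates 1 to 6, with the fitted dye effect removed as in all array values below, were -0.36, 0.38, 0.42, -0.60, -0.12 and 0.15. They split evenly around 0 at a spot with no signal above background, and the fit gave -0.02 ± 0.15 (SE, n = 6 arrays, adjusted *p* = 0.995). *pep7*, a PEP carboxylase gene distinct from that leaf form, gave more signal. On SAM 1.1 3 of its 7 probes were above background, with median nonmutant signals of 21.1, 12.5 and 11.6 times background. On SAM 3.0 1 of its 2 probes was above background, and its single SAM 2.0 probe was not. SAM 2.0 is the only chip that holds both genes, and neither passed there.

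The ratios of *pep7* lay close to 1. On SAM 1.1 the arrays gave log2 ratios of 0.08, 0.02, -0.07, -0.14, 0.02 and 0.14, with a fit of 0.01 ± 0.10. On SAM 2.0 they were 0.22, 0.26, 0.64, -0.19, -0.47 and 0.31, with a fit of 0.13 ± 0.15, and on SAM 3.0 0.11, 0.20, 0.19, -0.11, 0.09 and -0.12, with a fit of 0.06 ± 0.08. On each chip 4 of 6 arrays were above 0. The 7 probes of SAM 1.1 differed in sign, from -0.16 at probe 10098 to 0.21 at probe 7594. The adjusted *p*-values were 0.993, 0.906 and 0.928.

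*me3* encodes the NADP-malic enzyme that decarboxylates malate in bundle sheath plastids. All 4 of its probes, 2 on SAM 1.1 and 2 on SAM 3.0, were above background, which held for no other member with probes on more than 1 chip. Median nonmutant signals were 6.83 and 4.13 times background on SAM 1.1 and 9.70 and 9.39 on SAM 3.0, where the same clones were spotted. The arrays of SAM 1.1 gave log2 ratios of 0.41, -0.22, -0.71, -0.30, -0.19 and 0.02, and those of SAM 3.0 gave 0.27, -0.08, -0.27, -0.21, 0.18 and -0.12. On both chips 4 of 6 arrays were below 0, and replicate 1 was the highest and replicate 3 the lowest. The fits were -0.17 ± 0.14 (adjusted *p* = 0.844) and -0.04 ± 0.09 (adjusted *p* = 0.958), and all 4 probes had negative log2 ratios. With array weights the SAM 3.0 value was 0.06.

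*pdk1* encodes pyruvate orthophosphate dikinase, which regenerates PEP for the C4 cycle. In maize this locus also makes a cytosolic form from the same coding exons, and cDNA probes of the shared part cannot separate them. With the main processing *pdk1* had the largest gene ratio among the members of SAM 2.0, the only chip that holds it. With plain background subtraction its log2 ratio was 0.30, below that of *fdx2* at 0.77. The arrays gave log2 ratios of 0.39, 0.45, 0.44, -0.12, 0.01 and 0.51. Of these, 5 were above 0, and replicates 4 and 5 lay apart from the other 4. The fit gave 0.28 ± 0.14, a ratio of 1.21 with a 95% interval from 0.994 to 1.48. By limma the unadjusted *p*-value was 0.0562 and the adjusted 0.780 over all features of the chip, so *pdk1* did not pass the test.

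The 6 *pdk1* probes were not alike. Probe 3105 was the only one above background, with median signals of 9.41 (nonmutant) and 15.0 (ns) times background. Its arrays gave log2 ratios of 1.08, 0.45, 0.10, 0.32, 0.65 and 1.06, all above 0, and its fit gave 0.61 ± 0.15 (limma, unadjusted *p* = 0.00084, adjusted *p* = 0.371 over the probes of the chip). The fits of probes 8815, 10663, 8015 and 10429 were 0.37 ± 0.14, 0.38 ± 0.15, 0.31 ± 0.16 and 0.10 ± 0.15. The unadjusted *p*-values by limma were 0.013 for probe 8815 and 0.022 for probe 10663. These probes share a target gene, so they are not independent of each other. The sixth, probe 12056, had -0.11 ± 0.15 and was above 0 in 2 of 6 arrays. The median nonmutant signals of these 5 probes ranged from 1.67 to 3.16 times background. Over all settings tried the value of probe 3105 stayed between 0.49 and 0.74 and its adjusted *p*-value between 0.138 and 1.000.

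**Figure D3:**
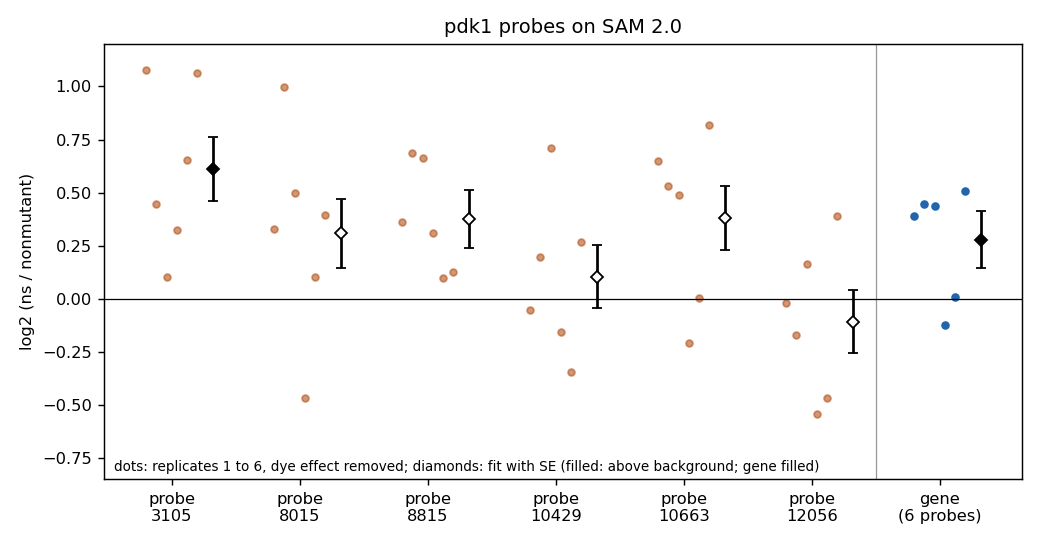
Log2 ratio of ns to nonmutant signal (y axis) at the 6 *pdk1* probes of SAM 2.0 and for the gene (x axis). Dots are replicates 1 to 6 from left to right with the dye effect removed, and diamonds are fits with their SE, filled where above background. The 6 arrays of probe 3105 lie between 0.10 and 1.08, and those of probe 12056 between -0.54 and 0.39.

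On SAM 1.1 all 3 light-harvesting genes had log2 ratios above 0, with a median of 0.14. Of the 2 C4 cycle genes there, *me3* was at -0.17 and *pep7* at 0.01, with a median of -0.08 that was -0.0018 without replicate 3. On SAM 2.0 the medians were 0.06 for light harvesting and 0.13 for the C4 cycle, for 3 genes each. This C4 cycle median is the ratio of *pep7*, which was not above background there, with *pep1* at -0.02 and *pdk1* at 0.28. SAM 3.0 has no light-harvesting member, and its 2 C4 cycle genes (*me3* at -0.04, *pep7* at 0.06) had a median of 0.01. The C4 cycle medians thus rest in part on *pep7*, a gene distinct from the leaf form. On SAM 1.1 the single arrays gave class medians between 0.01 and 0.31 for light harvesting and between -0.39 and 0.24 for the C4 cycle. On SAM 2.0 they gave medians between -0.12 and 0.22 for light harvesting and between -0.19 and 0.44 for the C4 cycle. The ranges of the classes overlapped on both chips. Under the alternatives tried none of these medians changed sign except that of the C4 cycle on SAM 3.0, which lay between -0.036 and 0.077.

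*Cab-m7* encodes a chlorophyll a/b-binding protein of the photosystem II antenna. On SAM 1.1 its probe had a median nonmutant signal of 5.76 times background, and on SAM 2.0 1 of 6 probes (7146, 5.42 times background) was above background. The other 5 probes of SAM 2.0 had medians from 1.01 to 2.37. The log2 ratios of the arrays were 0.01, 0.20, 0.56, 0.37, -0.14 and -0.13 on SAM 1.1, and -0.20, -0.11, 0.22, -0.01, -0.13 and 0.02 on SAM 2.0. The first chip thus had 4 of 6 arrays above 0 and the second 4 of 6 below. The fits were 0.14 ± 0.13 and -0.03 ± 0.13 (adjusted *p* = 0.847 and 0.984), and the SAM 2.0 probes ranged from -0.19 at probe 10355 to 0.18 at probe 8852.

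*lhcb5* encodes the minor antenna protein CP26. Its probe 14324 on SAM 1.1 had the highest signal over background of the 81 member probes, with medians of 41.7 (nonmutant) and 46.5 (ns), while its other SAM 1.1 probe had 6.08 and was under the threshold in at least 1 array. On SAM 2.0 probe 9963 passed and the other 3 did not. The arrays gave log2 ratios of -0.02, 0.24, 0.12, -0.09, 0.31 and 0.26 on SAM 1.1 and -0.12, 0.10, 0.20, 0.12, 0.11 and -0.02 on SAM 2.0. On both chips 4 of 6 were above 0. The fits were 0.14 ± 0.11 (adjusted *p* = 0.836) and 0.06 ± 0.12 (adjusted *p* = 0.952), with probe 2367 of SAM 2.0 at -0.09 and probe 4337 at 0.18.

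*Lhcb5-2*, a further CP26 gene by its symbol, has 1 probe, on SAM 1.1. The arrays gave log2 ratios of 0.09, 0.32, 0.28, 0.15, 0.35 and 0.27. It was the only member whose 6 arrays lay on the same side of 0, and with the dye effect of -0.23 left in, 5 of 6 did. The fit gave 0.24 ± 0.10, a ratio of 1.18 with a 95% interval from 1.01 to 1.39 (unadjusted *p* = 0.0394, adjusted *p* = 0.830 by limma). The median signals were 2.23 (nonmutant) and 2.53 (ns) times background, below the threshold in at least 1 array. *lhcb6*, which encodes the minor antenna protein CP24, is on SAM 2.0 only. Of its 6 probes 5190 and 3139 were above background, with median nonmutant signals of 17.9 and 4.56, and 3 others were at 0.993 to 1.47. Its fit was 0.09 ± 0.12 (adjusted *p* = 0.927), and the probes ranged from -0.06 at probe 3139 to 0.18 at probe 11901.

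Among the photosystem genes, *psbs1* encodes the PsbS protein of nonphotochemical quenching, and 1 of its 8 probes was above background (6418 on SAM 3.0). The arrays gave log2 ratios of -0.32, -0.12, 0.11, -0.07, -0.06 and -0.07 on SAM 1.1. On SAM 2.0 they were -2.3e-05, -0.11, -0.13, 0.08, -0.04 and -0.14, and on SAM 3.0 0.01, 0.14, 0.24, -0.17, 0.20 and -0.08. On the first 2 chips 5 of 6 arrays were below 0, and on the last 4 of 6 were above. The fits were -0.09 ± 0.11, -0.06 ± 0.12 and 0.06 ± 0.08 (adjusted *p* = 0.881, 0.961 and 0.936). With plain background subtraction the value on SAM 1.1 was 0.13.

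*psbq1* encodes a subunit of the oxygen-evolving complex. Its single SAM 1.1 probe had median signals of 17.6 times background in both channels. Its 4 SAM 2.0 probes had median nonmutant signals from 0.990 to 1.48, none above background. The log2 ratios of the arrays were -0.05, -0.02, 0.15, 0.20, 0.06 and -0.02 on SAM 1.1 and 0.12, 0.01, 0.45, 0.30, -0.11 and 0.15 on SAM 2.0. On SAM 1.1 the arrays spread with an SD of 0.101, beside 0.202 on SAM 2.0, and the fit was 0.05 ± 0.10 (adjusted *p* = 0.922). On SAM 2.0 the fit was 0.16 ± 0.13 (adjusted *p* = 0.844), with probe 8752 at -0.03 and probe 13393 at 0.28.

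No probe of the photosystem I genes was above background in all arrays, although 1 probe of *psad1* had medians over 2 times background. *psad1*, whose product docks ferredoxin, had median nonmutant signals of 1.04 times background on SAM 1.1, 1.24 and 1.41 on SAM 2.0 and 3.13 on SAM 3.0 (2.64 in ns), and its log2 ratios were -0.06 ± 0.10, 0.05 ± 0.13 and 0.02 ± 0.08. *psan1*, which encodes a lumenal subunit, had signals of 1.13, 1.79 and 1.75 and log2 ratios of 0.11 ± 0.11, -0.17 ± 0.14 and 0.01 ± 0.11. *psah1*, which encodes a small subunit of the core, had signals of 1.12, 1.13 and 1.38 and log2 ratios of 0.03 ± 0.15, 0.05 ± 0.14 and 0.12 ± 0.09. On SAM 3.0 *psah1* had the lowest unadjusted *p*-value of that chip's members (0.204, adjusted *p* = 0.889 by limma). Its arrays there gave -0.24, 0.26, 0.30, 0.00016, 0.11 and 0.31, with replicate 1 alone below 0.

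*fdx3*, a ferredoxin of the nonphotosynthetic type known from roots, was above background on all 3 chips. On SAM 1.1 its 3 probes had median nonmutant signals of 38.9, 16.0 and 15.9 times background, and on SAM 2.0 and SAM 3.0 1 probe each passed, at 3.78 and 4.53. *fdx2*, a leaf ferredoxin, was above background on none. Its medians were 1.05 and 3.78 on SAM 1.1, 0.929 on SAM 2.0 and 1.19 on SAM 3.0. *fdx3* has 8 probes and *fdx2* 4, and the brightest *fdx2* probe (12959 on SAM 1.1) had the same median as the passing *fdx3* probe of SAM 2.0. Signals of different probes are not levels on a common scale.

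The log2 ratios of *fdx3* were -0.16, 0.39, 0.22, 0.17, 0.37 and -0.13 on SAM 1.1 and 0.02, 0.09, -0.07, -0.10, 0.11 and 0.06 on SAM 2.0. On SAM 3.0 they were 0.04, 0.18, 0.32, -0.13, 0.23 and -0.09. On each chip 4 of 6 arrays were above 0. The fits were 0.14 ± 0.12, 0.02 ± 0.12 and 0.09 ± 0.09 (adjusted *p* = 0.843, 0.995 and 0.911), and the SAM 3.0 probes ranged from -0.0004 at probe 3591 to 0.15 at probe 12491. The log2 ratios of *fdx2* were 0.12, 0.03, 0.17, 0.06, -0.13 and 0.06 on SAM 1.1. On SAM 2.0 they were -0.49, 0.55, 0.79, 0.39, 0.44 and -0.20, and on SAM 3.0 -0.19, 0.17, 0.56, 0.12, -0.36 and -0.43. The spread of *fdx2* was wide on the last 2 chips, with SDs of 0.487 and 0.377, beside 0.101 on SAM 1.1. The fits were 0.05 ± 0.10, 0.25 ± 0.16 and -0.02 ± 0.12 (adjusted *p* = 0.927, 0.806 and 0.988). On SAM 2.0 the value was 0.77 with plain background subtraction and 0.73 with the authors' values, both past 1.5-fold. The adjusted *p*-values by limma were then 0.859 and 0.868, at a spot not above background.

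*rbcs1* encodes the Rubisco small subunit of bundle sheath plastids. Probe 16448 on SAM 1.1 and probe 9219 on SAM 3.0 were above background, with median nonmutant signals of 7.55 and 4.00, and the other 3 probes were not, with 1.07 to 2.61. The arrays gave log2 ratios of -0.03, 0.04, 0.31, -0.16, -0.16 and 0.25 on SAM 1.1 and -0.07, 0.13, -0.18, -0.05, 0.19 and -0.13 on SAM 2.0. On SAM 3.0 they were 0.11, 0.03, 0.18, -0.13, 0.28 and -0.11. Arrays lay on both sides of 0 on every chip, and the fits were 0.04 ± 0.11, -0.02 ± 0.13 and 0.06 ± 0.08 (adjusted *p* = 0.947, 0.995 and 0.931). Both SAM 1.1 probes differed in sign (9535 at -0.04, 16448 at 0.13), as did those of SAM 2.0 (703 at -0.08, 2338 at 0.04).

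Other genes of the same pathways were read from lists of symbols. Of 33 further C4 symbols 7 genes had a probe, and 4 of these were above background on at least 1 chip. They were *me2*, *mdh4* and the kinase genes *PPCK1* and *PPCK2*, which were left out of the members. Median nonmutant signals on the 3 chips were 3.29, 12.1 and 32.4 times background for *me2* and 6.57, 8.16 and 7.65 for *mdh4*. The plastid NADP-malate dehydrogenase gene *mdh6*, which makes malate in mesophyll plastids, was not above background. Its median nonmutant signals were 1.53 and 1.55 times background on SAM 1.1 and SAM 2.0. Nor were *pdrp1*, which encodes the regulatory protein of the dikinase, at 1.33 on SAM 2.0, and *ppt1*, at 1.44 on that chip. Of 28 Calvin cycle symbols 4 genes had a probe, and each was above background on at least 1 chip. Among them *rca1*, which encodes Rubisco activase, had medians of 2.36, 3.10 and 1.15 on the 3 chips. *ald1* had 20.4 on SAM 1.1 and 21.7 on SAM 2.0, and *gpb1* had 19.4 on SAM 1.1. The list matches symbols only, and whether *ald1* encodes a plastid form of its enzyme was not tested. *gpa1* had 1.17, 2.24 and 1.22 on the 3 chips. Of 37 plastid biogenesis symbols 9 genes had a probe and 7 were above background on at least 1 chip, and of 32 chlorophyll synthesis symbols 1 had a probe, which was not above background.

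No gene of these 4 lists passed the test in either direction on any chip. The median log2 ratio over genes and chips was -0.02 for 13 ratios of the further C4 genes, -0.02 for 9 Calvin cycle ratios and 0.05 for 16 plastid biogenesis ratios, and the single chlorophyll synthesis ratio was 0.08. At an unadjusted *p*-value under 0.05 there was 1 ratio, of the plastid biogenesis gene *hcf106* on SAM 2.0 (log2 0.31 ± 0.15, adjusted *p* = 0.774 by limma). Its product acts in protein transport into thylakoids. On SAM 1.1 *hcf106* was at 0.05 ± 0.11, with a median nonmutant signal of 9.09 times background beside 4.76 on SAM 2.0. Among the marker genes of meristem, leaf primordium, epidermis and vasculature none passed either. The numbers at an unadjusted *p*-value under 0.05 were 0 of 18, 2 of 24, 0 of 12 and 1 of 17 ratios, all 3 of them above 1.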

How the data were processed

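For every array the authors deposited the spot and local background intensity in the Cy3 and Cy5 channels, and the natural log of the channels after their background correction, LOWESS and median centring, with the natural log of Cy5 over Cy3. The intensities were used for the main values, with normexp background correction (offset 50), loess within each array (span 0.3) and median centring of both channels. Scans of a SAM 3.0 array were averaged, and so were the probes of a gene. The regression of the study's methods, with terms for dye and genotype, was run per chip in limma 3.58.1 (R 4.3.3; lmFit, eBayes), where 6 arrays leave 4 residual degrees of freedom. Benjamini-Hochberg adjustment covered all features of a chip, and 95% intervals use the moderated SE. The replicates are pools of different SAMs, and the number of arrays limits the precision. Signal over background is the mean spot intensity over the mean local background.

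Genes were named from the platform annotation of the probes, updated through the current maize gene table, which held 15 of the 16 members. A single symbol was given for 3845 of 49280 probes, several for 24 and none for 45411. Near-identical family members can cross-hybridize on cDNA probes, so a probe may read more than the gene it is named for. Members and lists were chosen with earlier results of these data known. All members are named, and values of every array are given for all C4 cycle genes, for up to 2 genes of each other class with the most probes, and for up to 2 genes per chip with the lowest unadjusted *p*-value, and probes of a gene that differ in sign are named by their extremes. *mdh6*, *pdrp1*, *rca1*, *hcf106* and the other genes named from the pathway lists were named after their values were seen. The alternatives tried were other background corrections and normalizations, the authors' values (changed to log2), the methods' t-test, a filter on dim features (lowest 25% by intensity), each scan by itself, channels unpaired, no dye effect, array weights, single probes, other signal thresholds and each replicate left out. Sequences of the probes were not used here.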

Additional observations from a re-analysis of the deposited data

Results flagged for a closer look

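Of 36 sets of 6 arrays, 1 had an array far from the others. On SAM 1.1 replicate 2 gave a log2 ratio of 0.4635 for *psan1*, and its gap to the nearest array was 0.64 of the whole range. Chance alone puts about 1 in 20 such sets past this limit. The probe was not above background.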

How the results depend on the processing

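No member passed the test under any of the 54 alternatives of the 3 counts, nor did any of 545 gene and probe values, whose sign changed in 50. All features called numbered 1, 5 and 2 on the 3 chips in the order SAM 1.1, 2.0, 3.0. They were 0, 0 and 0 with the authors' values and with the methods' t-test, and 0, 3 and 0 with no replicate block, that is with the pairing on the array ignored, which left members at 0. On SAM 1.1 they were 2 with no background correction, without loess, with dim features left out, with no dye intercept and by probe, and 8 with array weights. On SAM 2.0 they were 2 with plain subtraction and 3 with no dye intercept. On SAM 3.0 they were 0 with plain subtraction, each single scan and no dye intercept, 1 with scaling between arrays and 73 with array weights. Leaving out 1 replicate gave 1 to 393, 3 to 8 and 0 to 1, with 393 on SAM 1.1 without replicate 1. Genes above background were 3, 0 and 2 where every probe had to pass. They were 8 on SAM 2.0 with 4 of 6 arrays and with median background (chosen after seeing the data), and on SAM 3.0 1 at threshold 3, 3 on the low and 2 on the high scan. The members' median on SAM 1.1 was 0.14 with the authors' values, and the photosystem median was -0.074 with array weights and -0.080 to 0.057 leaving out 1 replicate. The cause of these shifts was not tested.

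The sign of 17 gene ratios changed, all of them within 0.1 of 0 on the log2 scale except *psah1* on SAM 3.0 (0.12). With array weights the values were -0.11 (*psah1*), -0.017 (*fdx2*) and -0.031 (*rbcs1*) on SAM 1.1, and 0.060 (*me3*), -0.0021 (*psah1*) and -0.047 (*psan1*) on SAM 3.0. With no background correction they were -0.0019 (*pep7*) and -0.019 (*psah1*) on SAM 1.1, 0.11 (*pep1*) and -0.014 (*psah1*) on SAM 2.0, and -0.030 (*psan1*) on SAM 3.0. With plain subtraction they were 0.13 (*psbs1*, SAM 1.1), 0.063 (*pep1*) and -0.0021 (*psan1*, SAM 3.0), and with the authors' values 0.14 (*psbs1*, SAM 1.1), 0.090 (*pep1*) and 0.24 (*fdx2*, SAM 3.0). Without loess they were -0.0058 (*psad1*) and -0.018 (*psah1*) on SAM 2.0 and 0.064 (*fdx2*, SAM 3.0). On SAM 3.0 scaling gave -0.052 (*psan1*), the low scan -0.15 (*psad1*) and -0.077 (*psan1*), and the high scan 0.11 (*fdx2*) and -0.029 (*rbcs1*). Leaving out 1 replicate gave -0.027 to 0.042 (*pep7*), -0.13 to 0.15 (*psah1*) and -0.024 to 0.095 (*rbcs1*) on SAM 1.1. On SAM 2.0 it gave -0.13 to 0.12 (*pep1*), -0.098 to 0.0063 (*Cab-m7*), -0.065 to 0.14 (*psah1*), -0.0045 to 0.049 (*fdx3*) and -0.072 to 0.022 (*rbcs1*). On SAM 3.0 it gave -0.12 to 0.018 (*me3*), -0.046 to 0.072 (*psad1*), -0.11 to 0.11 (*psan1*) and -0.17 to 0.083 (*fdx2*).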
